A study of Mus musculus with 9 samples.

Results

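The TRIM family was followed by RNA sequencing in primary microglia of the mouse, which are the macrophages that live in brain tissue. Its members were taken as every gene symbol made of Trim, a number and, in some, lower-case letters. This gave 66 of the 24411 genes in the deposited count files. Of these 66 genes, 54 had at least 1 count in the 9 libraries and 34 had enough counts to be tested. The cells came from whole brains of 3-day-old mice of the outbred ICR strain, grown as mixed glia, from which microglia were shaken off, and were plated for 24 h before treatment. Every group was treated for 4 h and held 3 libraries. The R848 group received 1 µM R848, or resiquimod, a small molecule that activates mouse TLR7, a receptor of endosomes. The IFN-α group received 100 U/ml of recombinant mouse IFN-α, a type I interferon, and the combined group received both agents at those concentrations. A control group named in the study's design text is not analysed here, so every value compares treated cells with other treated cells.

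TRIM proteins carry a RING domain, a B box and a coiled coil, followed by a C-terminal domain that sorts them into classes. The RING makes most of them E3 ubiquitin ligases, which attach ubiquitin to chosen proteins. Many members with a PRY-SPRY domain bind viral proteins or tune the sensors and kinases that lead to interferon and NF-κB signalling, and a number of them are themselves interferon-stimulated genes. Other classes act on microtubules, on chromatin or at the endoplasmic reticulum.

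Library totals ranged from 2505941 to 6005578 gene counts, with replicate 3 of the combined group the deepest. Between 2294 and 9365 of these counts per library fell on TRIM genes. Levels are given in CPM (gene counts as a share of the library, after TMM scaling), as mean ± SD over the 3 libraries of a group. Differences were tested with edgeR's quasi-likelihood F test over 11002 genes, and a gene was called where its Benjamini-Hochberg adjusted p was under 0.05. The labels do not say whether replicates came from separate cultures, so the p-values reflect the spread among libraries that may be technical replicates. All 11 microglial markers on the list used had enough counts, and their summed level ran from 2535 to 2785 CPM with R848, 3567 to 3740 with IFN-α and 2562 to 2931 with both. Of 10 astrocyte markers, 9 had enough counts, and their sum was 1448 to 1705 CPM with R848, 1147 to 1448 with IFN-α and 2380 to 3430 with both. None of the markers on either list was at 0 in all libraries. In such bulk samples, fewer cells of a type and less RNA per cell cannot be told apart, and the part of astrocytes in the TRIM levels was not tested.

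TRIM transcripts were a larger share of the RNA wherever IFN-α was given. Summed over all members, the family reached 751 ± 22.2 CPM (SD, n = 3) with R848, 1538 ± 38.3 CPM with IFN-α and 1862 ± 22.7 CPM with both agents. The lowest sum with IFN-α, 1513 CPM, lay above the highest with R848, 765 CPM. As a share of unscaled gene counts, the members held 0.0800% to 0.0888% with R848, 0.150% to 0.167% with IFN-α and 0.152% to 0.166% with both. On that scale the combined and IFN-α libraries overlapped. The ribosomal gene Rn45s took 13.3% to 26.1% of gene counts. With Rn45s left out, the share was 0.0980% to 0.104% with R848, 0.198% to 0.203% with IFN-α and 0.191% to 0.194% with both. There the combined group lay below IFN-α without overlap, the reverse of the order in CPM. The direction of the difference between the combined and IFN-α groups thus depended on the scaling. Trim30a, Trim30d, Trim14 and Trim25, picked after their values were seen, made up 9.64% of the family's CPM with R848, 44.3% with IFN-α and 46.7% with both.

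The members that led the family per kilobase of exon were not the same with and without IFN-α. Exon lengths are from GENCODE release M21, matched by symbol, and may differ from the gene models used for counting, which could move these ranks. With R848, Trim35 stood at 23.4 ± 0.717 CPM per kilobase, followed by Trim13 at 18.9 ± 3.23, Trim47 at 16.2 ± 2.29 and Trim28 at 14.8 ± 3.13. Trim13, Trim47 and Trim28 lay within 1 SD of a neighbour, so their order is not fixed. With IFN-α, Trim30a led at 59.4 ± 5.60 CPM per kilobase, before Trim14 at 51.4 ± 2.16, Trim30d at 27.6 ± 1.59 and Trim12c at 26.5 ± 0.864. Trim12c lay within 1 SD of Trim30d, so the order of Trim30d and Trim12c is not fixed either. With both agents, Trim30a stood at 74.7 ± 5.32 CPM per kilobase and Trim30d at 55.0 ± 4.34, with Trim14, Trim25 and Trim35 between 33.5 and 37.1.

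**Figure D1:**
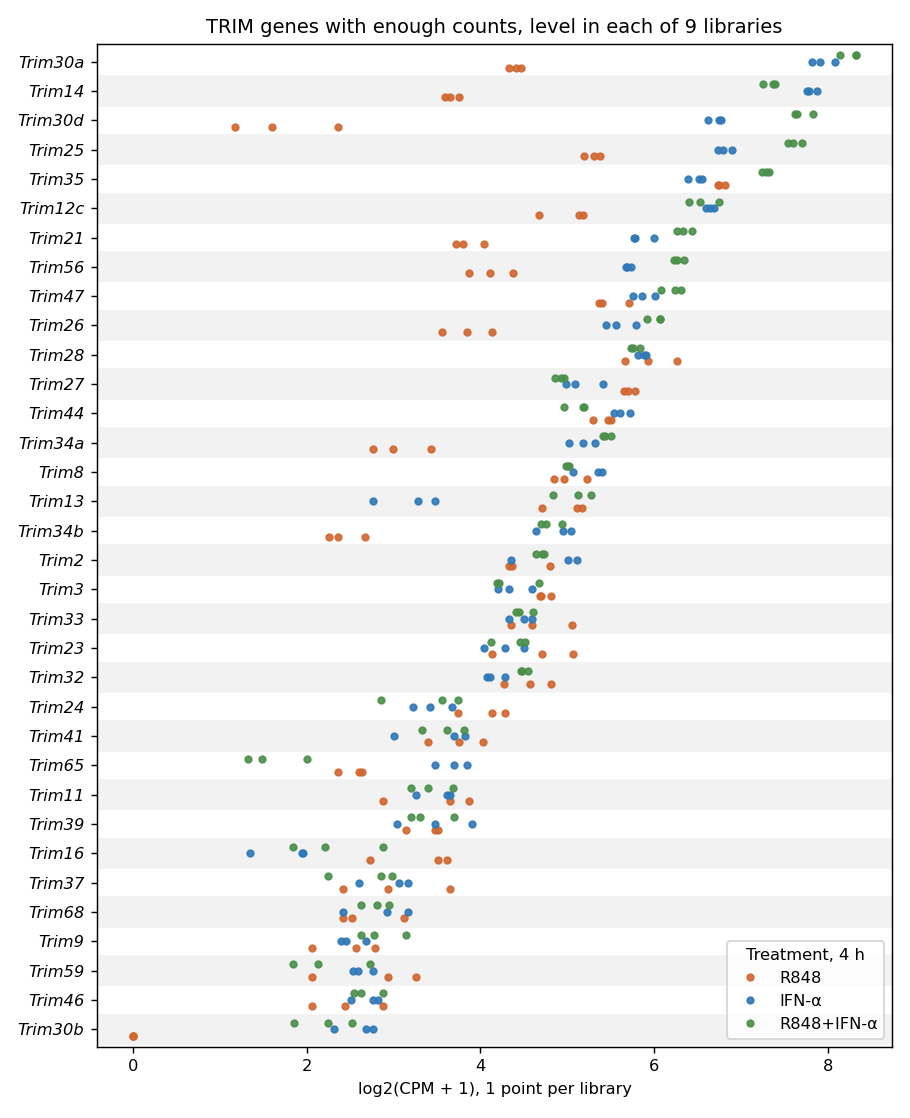
Level of each of the 34 TRIM genes with enough counts in every library, as log2(CPM + 1) on the horizontal axis with 1 point per library, for R848, IFN-α and R848+IFN-α. Genes are ordered by level, and the R848 points of Trim30a, Trim14, Trim30d and Trim25 sit apart to the left, while those of Trim13 sit with the combined group to the right of IFN-α.

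Between the single agents, 13 of the 34 members tested had lower levels with R848 than with IFN-α and 5 were higher. Over all genes tested the corresponding shares were 19% lower and 18.4% higher, 37.4% called in all. At least 2-fold differences were called in 12 members that were lower and 2 that were higher, against 9.6% and 6.91% of all genes. The median log2 fold change of R848 over IFN-α was -0.19 over the members tested and 0.02 over all genes tested. When R848 was the background and IFN-α was added, 13 members were higher with both agents and 4 were lower, beside 19.2% and 16.7% of all genes tested, or 35.9% in all. At least 2-fold, 11 were higher and 2 lower, beside 8.88% and 3.7%. The median of this change was 0.10 over the members and -0.03 over all genes. These comparisons share the R848 libraries. In all, 19 members differed among the 3 groups, beside 50.3% of all genes, and 15 were called in no comparison.

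A set of 12 members was both lower with R848 than with IFN-α and higher with both agents than with R848. Each call alone was made in 19% and 19.2% of all genes tested. The share of all genes with both calls was not computed, and the comparisons share the R848 libraries, so whether 12 of 34 is unusual was not tested. The set comprised Trim12c, Trim14, Trim21, Trim25, Trim26, Trim30a, Trim30b, Trim30d, Trim34a, Trim34b, Trim47 and Trim56. Of these, 6 lie on chromosome 7 in a stretch of 289.057 kb. It runs from Trim6 to Trim30d at chr7:104218793-104507849 (GRCm38, GENCODE release M21). The stretch holds 8 members, of which Trim6 had 28 counts over all libraries and Trim12a had none. The 6 members tested there, Trim34a, Trim34b, Trim12c, Trim30b, Trim30a and Trim30d, were all in this set. Trim30b, with no count with R848, and Trim30d, with 25, passed the count filter through the groups that received IFN-α. Trim6, with 7 counts with R848 and 6 with IFN-α, did not pass it. The filter thus favoured members that are high with IFN-α, and 6 of 6 is not independent support for the pattern.

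Promoters of Trim30a, Trim30d and Trim13 are shown in full, and windows of 4 others, because all but that of Trim13, shown for contrast, hold the letters of the interferon-stimulated response element (ISRE), a motif known from the promoters of many interferon-stimulated genes. Sequences are those of RefSeq on GRCm38.p6, from 250 bases before to 50 bases after an annotated start, read 5′ to 3′ on the gene's own strand. Capitals mark each match to GAAANNGAAA on either strand. Trim30a, at chr7:104465144-104465443 on the minus strand, holds it 36 bases before its start, and Trim30d, at chr7:104507800-104508099 on the minus strand, 41 bases before. Trim13, at chr14:61597976-61598275 on the plus strand, was higher with R848 than with IFN-α and holds no match.
Trim30a: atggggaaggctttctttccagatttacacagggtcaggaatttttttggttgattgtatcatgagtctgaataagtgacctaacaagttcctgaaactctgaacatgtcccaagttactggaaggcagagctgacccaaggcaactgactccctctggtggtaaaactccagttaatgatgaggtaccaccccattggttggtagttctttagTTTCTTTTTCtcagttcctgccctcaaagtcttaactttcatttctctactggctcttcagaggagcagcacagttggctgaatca
Trim30d: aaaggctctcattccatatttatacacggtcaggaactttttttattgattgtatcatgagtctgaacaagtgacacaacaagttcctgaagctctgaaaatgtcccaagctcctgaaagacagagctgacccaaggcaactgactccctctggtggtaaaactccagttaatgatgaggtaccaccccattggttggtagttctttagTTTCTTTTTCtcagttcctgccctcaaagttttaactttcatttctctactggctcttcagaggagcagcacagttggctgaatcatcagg
Trim13: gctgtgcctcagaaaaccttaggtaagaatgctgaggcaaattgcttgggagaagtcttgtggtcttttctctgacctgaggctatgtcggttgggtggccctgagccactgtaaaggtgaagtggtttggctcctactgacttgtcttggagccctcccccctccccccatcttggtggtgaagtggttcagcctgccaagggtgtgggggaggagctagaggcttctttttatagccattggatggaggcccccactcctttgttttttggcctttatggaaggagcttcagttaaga
The promoters of Trim30a and Trim30d were identical at 277 of 305 aligned columns, or 90.82%. The shorter windows below surround the matches of Trim12c (chr7:104353349-104353398, minus strand), Trim21 (chr7:102565434-102565489, minus strand), Trim26 (chr17:36836966-36837021, plus strand) and Trim34a (chr7:104244447-104244496, plus strand). Trim21 and Trim26 each hold a pair of overlapping matches.
Trim12c: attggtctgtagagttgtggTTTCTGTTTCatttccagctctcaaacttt
Trim21: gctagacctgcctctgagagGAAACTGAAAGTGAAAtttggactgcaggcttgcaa
Trim26: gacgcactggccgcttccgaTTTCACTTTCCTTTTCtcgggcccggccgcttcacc
Trim34a: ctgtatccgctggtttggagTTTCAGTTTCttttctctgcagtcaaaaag

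Of the 66 members, 51 had a promoter in the RefSeq table. The ISRE letters were found in 8 of these 51 members, and in 3.443% of all 32851 promoters of this length. Members with several annotated starts counted once, so the unit differs between the 2 shares. Counted by promoter, the letters were in 9 of 65 TRIM promoters, or 13.85%. Among the 12 members above, 11 had a promoter in the table and 6 of those held a match, namely Trim12c, Trim21, Trim26, Trim30a, Trim30d and Trim34a. The promoters of Trim25, Trim30b, Trim34b, Trim47 and Trim56 held no match in these windows. Trim12a, which had no counts, held one too. Among the other members tested, 15 had a promoter and 1, Trim2, held a match, while its level was not called in any comparison. The NF-κB letters GGGNNTTTCC, the only form of that site searched, were in no member's promoter and in 1.629% of all promoters. At so low a share, their absence from 65 TRIM promoters says little about the family. The letters TTCNNNGAA of the gamma-activated site were in 5 members. Counted by promoter, they were in 6 of 65 TRIM promoters, or 9.231%, and in 8.298% of all promoters. All motifs were searched on both strands, and a match describes the letters only.

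Trim30d and Trim30a, neighbours at the end of the chromosome 7 stretch, had the largest log2 fold changes between both agents and R848 among the members with counts in every group. Trim30a is known in mouse macrophages to restrain TLR-driven NF-κB activity by acting on Tab2 and Tab3, and Trim30d is its close paralogue. Trim30d (chr7:104470014-104507849) was at 2.03, 1.27 and 4.15 CPM in the R848 libraries, 106, 108 and 97.0 CPM with IFN-α and 226, 199 and 196 CPM with both. The 3 groups did not overlap, and the R848 libraries were close to background. Its level was 40.8-fold lower with R848 than with IFN-α (log2 fold change -5.35 ± 0.20 SE, adjusted p = 5.05e-20) and 1.99-fold higher with both than with IFN-α alone (0.99 ± 0.11, adjusted p = 1.4e-08). Trim30a (chr7:104409025-104465193) was at 19.1, 20.2 and 21.0 CPM with R848, 269, 225 and 239 with IFN-α and 282, 319.6 and 320.1 CPM with both. Again no group overlapped another, although the lowest combined library was close to the highest IFN-α library. The R848 group was 12.1-fold below IFN-α (-3.60 ± 0.12, adjusted p = 2.83e-21), and the combined group was 1.26-fold above it (0.33 ± 0.09, adjusted p = 0.00578). The second call was lost with library totals alone, at a log2 fold change of 0.03 (adjusted p = 0.888), and without replicate 2 of the IFN-α group, at 0.28.

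Trim30b (chr7:104355382-104369884), a low member of the same stretch, had no count in any R848 library. With IFN-α it was at 5.81, 3.98 and 5.41 CPM, and with both agents at 3.74, 4.75 and 2.61 CPM. Against a floor of 3 counts over the R848 group, the IFN-α level was at least 16.88-fold higher and the combined level at least 11.36-fold higher. The groups with IFN-α overlapped.

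Trim34a and Trim34b are paralogues that share part of their sequence, and their split is uncertain: 20.7% of the 101-base stretches of Trim34a also occur in Trim34b, and 30.03% of those of Trim34b in Trim34a. Trim34a (chr7:104244457-104262234) was at 5.79, 6.96 and 9.77 CPM with R848, 35.2, 31.5 and 38.8 with IFN-α and 41.5, 42.3 and 44.2 CPM with both. Trim34b (chr7:104329471-104336909) was at 3.76, 5.38 and 4.15 CPM with R848, 24.0, 31.9 and 29.9 with IFN-α and 25.0, 25.9 and 29.8 CPM with both. For both genes every R848 library was below every other library. The R848 level of Trim34a was 4.68-fold lower than with IFN-α (-2.23 ± 0.19, adjusted p = 3.7e-11) and that of Trim34b 6.46-fold lower (-2.69 ± 0.22, adjusted p = 1.27e-11). Neither was called between the combined and the IFN-α group (adjusted p = 0.155 and 0.772).

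Trim12c, a mouse relative of the human retroviral restriction factor TRIM5, lies at chr7:104338754-104353362. It was at 24.6, 34.2 and 35.2 CPM with R848, 96.0, 102 and 99.2 with IFN-α and 106, 83.8 and 91.5 CPM with both. The R848 libraries stood apart and the other groups overlapped. The level with R848 was 3.17-fold lower than with IFN-α (-1.67 ± 0.13, adjusted p = 6.29e-12). Of its 101-base stretches, 6.859% also occur in Trim5, which is not among the genes counted in these data. Trim21, a cytosolic receptor for antibody-coated pathogens, lies outside the stretch at chr7:102557921-102565486. Its levels were 12.2, 13.0 and 15.4 CPM with R848, 63.1, 53.6 and 53.7 with IFN-α and 79.6, 75.6 and 85.5 CPM with both, with no overlap between groups. The level with R848 was 4.19-fold below IFN-α (-2.07 ± 0.15, adjusted p = 1.08e-12), and that of the combined group was 1.42-fold above IFN-α (0.51 ± 0.12, adjusted p = 0.00166), a call that was lost with library totals alone, at 0.20 (adjusted p = 0.277). Trim68, also on chromosome 7, ran from 4.34 to 7.95 CPM over all libraries and was called in no comparison.

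**Figure D2:**
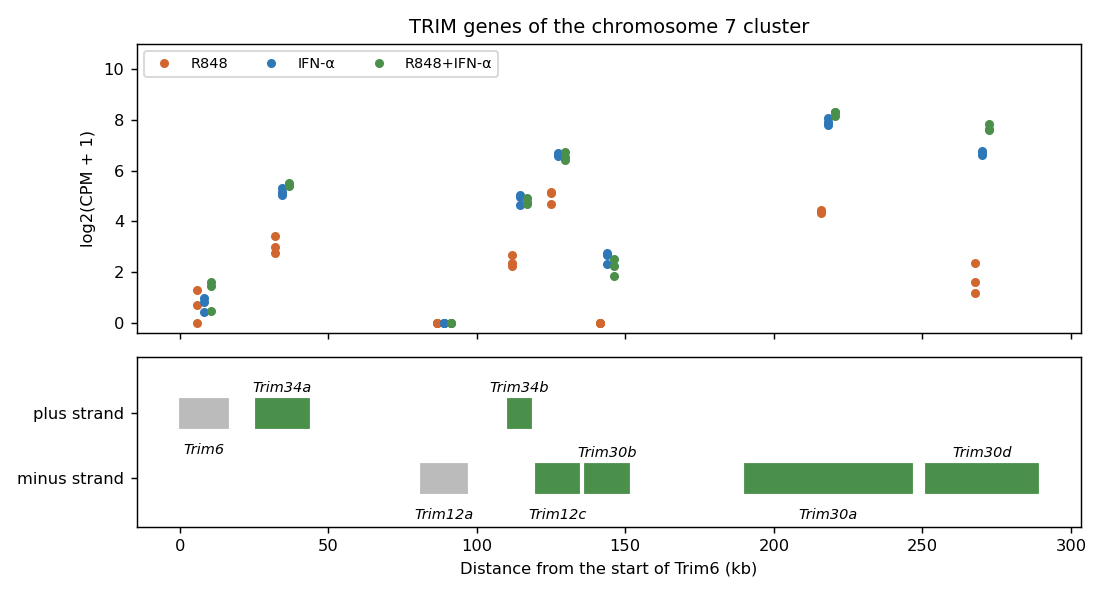
The TRIM genes of the chromosome 7 stretch, drawn to scale by distance from the start of Trim6 in kb (lower panel, plus and minus strand), with log2(CPM + 1) of every library above each gene. In the lower panel, green marks genes with enough counts to be tested, and grey marks Trim6 and Trim12a, which had too few. Green points in the upper panel are the R848+IFN-α libraries.

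Outside chromosome 7, Trim14 showed the widest gap between the single agents among the members of other chromosomes. Its human protein lacks a RING and serves as an adaptor of the mitochondrial sensor platform MAVS. Trim14 (chr4:46493781-46536141) was at 12.4, 11.1 and 11.6 CPM with R848, 219.9, 234 and 216 with IFN-α and 167, 151 and 164 CPM with both. No groups overlapped, and the combined group lay between the single agents. The level with R848 was 19.0-fold lower than with IFN-α (-4.25 ± 0.12, adjusted p = 1.51e-22). Adding R848 to IFN-α went with a 1.38-fold lower level (-0.47 ± 0.09, adjusted p = 0.00015). Exons of Nans on the other strand cover 31.26% of the exon bases of Trim14, and only counts on the strand of Trim14 were used.

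Trim25, the ligase that attaches ubiquitin chains to the RNA sensor RIG-I (encoded by Ddx58), rose from R848 to IFN-α to both. Trim25 (chr11:88999376-89020293) was at 40.5, 35.4 and 38.5 CPM with R848, 118, 110.1 and 105 with IFN-α and 186, 193 and 207 CPM with both. The 3 groups did not overlap. The level with R848 was 2.91-fold lower than with IFN-α (-1.54 ± 0.11, adjusted p = 5.81e-13), and the combined level was 1.76-fold higher than with IFN-α (0.82 ± 0.10, adjusted p = 5.01e-08).

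Trim26, a ligase reported to act on nuclear Irf3, and Trim56, whose human protein binds viral RNA and the DNA-sensing adaptor STING, had the same order of groups. Trim26 (chr17:36837134-36859398) was at 16.5, 10.8 and 13.3 CPM with R848, 54.2, 46.4 and 42.6 with IFN-α and 59.4, 66.1 and 66.0 CPM with both. Trim56 (chr5:137105644-137116209) was at 19.7, 13.6 and 16.3 CPM with R848, 52.3, 50.3 and 49.9 with IFN-α and 74.0, 76.0 and 80.4 CPM with both. In both genes no groups overlapped. The R848 level of Trim26 was 3.49-fold below IFN-α (-1.80 ± 0.16, adjusted p = 1.42e-10) and that of Trim56 3.06-fold below (-1.61 ± 0.15, adjusted p = 1.94e-10).

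Trim35 and Trim47 moved less. Trim35, a ligase reported to ubiquitinate Irf7, had the highest level per kilobase with R848 and was at 108 ± 3.31 CPM there, 88.5 ± 5.22 CPM with IFN-α and 155 ± 4.19 CPM with both (n = 3 each). Its log2 fold change between R848 and IFN-α was 0.29 (adjusted p = 0.0224), a call that was lost in 5 of 19 alternative settings, at values of 0.24 to 0.28. The combined group exceeded R848 by 0.52 ± 0.09 (adjusted p = 5.55e-05), which became 0.13 and was not called with library totals alone. Trim47 was at 44.3 ± 6.25 CPM with R848, 57.7 ± 5.18 CPM with IFN-α and 73.2 ± 5.85 CPM with both. Its difference between R848 and IFN-α, -0.38 ± 0.13 (adjusted p = 0.0212), was lost in 4 of 19 settings, and that between both and IFN-α, 0.33 ± 0.13 (adjusted p = 0.0449), in 9 of 19. Trim47 and Trim65 overlap on the same strand over 225 exon bases, so reads from there could belong to either gene.

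Members called higher with R848 than with IFN-α were Trim13, Trim16, Trim24, Trim27 and Trim35. Trim13, a ligase anchored in the endoplasmic reticulum membrane, was higher in both groups that received R848 than with IFN-α alone. Trim13 (chr14:61598247-61605946) was at 25.2, 35.1 and 33.5 CPM with R848, 5.81, 8.69 and 10.2 with IFN-α and 37.7, 27.6 and 33.8 CPM with both. The groups that received R848 overlapped, and every IFN-α library was lower. The level was 3.73-fold higher with R848 than with IFN-α (1.90 ± 0.21, adjusted p = 8.51e-09) and 3.97-fold higher with both than with IFN-α (1.99 ± 0.21, adjusted p = 5.27e-09). Between both agents and R848 alone the difference was 0.09 ± 0.17 (adjusted p = 0.708).

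Trim16, a RING-less member known for its part in the autophagy of damaged membranes, had few counts. Trim16 (chr11:62820231-62850808) was at 11.3, 10.4 and 5.63 CPM with R848, 1.55, 2.90 and 2.86 with IFN-α and 6.35, 2.59 and 3.62 CPM with both. The R848 libraries were all above those with IFN-α, while the combined group overlapped both others. The level was 3.65-fold higher with R848 than with IFN-α (1.87 ± 0.38, adjusted p = 0.000201) and fell by 1.13 ± 0.34 on the log2 scale when IFN-α was added (adjusted p = 0.00922). Without replicate 3 of the combined group, the latter was -0.99 and not called (adjusted p = 0.0721).

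Trim27, a nuclear and endosomal ligase, and Trim24, a chromatin reader with a PHD finger and a bromodomain, were also highest with R848. Trim27 was at 51.4 ± 2.31 CPM with R848, 35.1 ± 5.83 CPM with IFN-α and 29.2 ± 1.17 CPM with both. It was 1.46-fold higher with R848 than with IFN-α (adjusted p = 0.00203) and 1.77-fold lower with both than with R848 (adjusted p = 2.04e-05). Trim24 was at 15.8 ± 3.16 CPM with R848, 9.93 ± 1.73 CPM with IFN-α and 9.79 ± 3.17 CPM with both. Its excess with R848 over IFN-α, 0.67 ± 0.24 (adjusted p = 0.0311), was lost in 5 of 19 settings. Its lower level with both than with R848, -0.78 ± 0.24 (adjusted p = 0.0116), was -0.45 without replicate 3 of the combined group (adjusted p = 0.199) and -0.73 with DESeq2 (adjusted p = 0.0549), and not called in either.

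**Figure D3:**
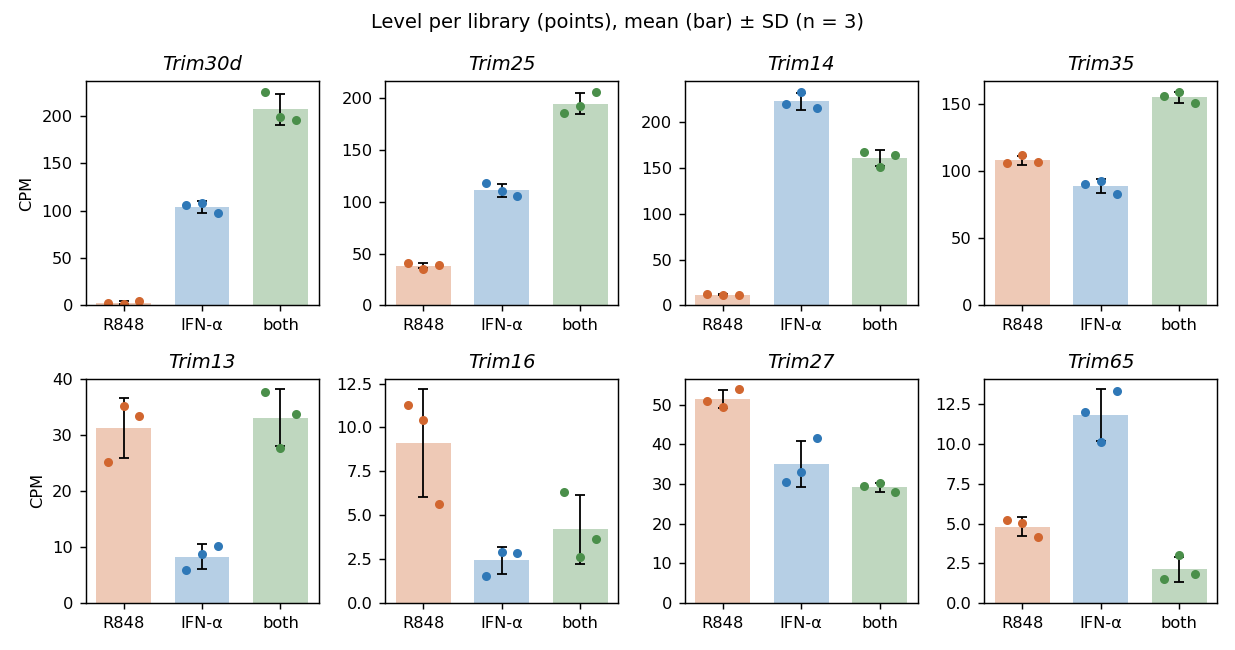
CPM of 8 TRIM genes in each library (points), with the group mean (bar) and SD (whisker, n = 3) for R848, IFN-α and both, each panel on its own linear axis from 0. Trim30d and Trim25 step up from R848 to IFN-α to both, Trim13 is low only with IFN-α, and Trim65 is lowest with both.

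Trim65, whose human protein ubiquitinates the RNA sensor MDA5 (encoded by Ifih1), was the only member called below both single agents. Trim65 (chr11:116121846-116131128) was at 5.21, 5.06 and 4.15 CPM with R848, 12.003, 10.140 and 13.357 with IFN-α and 1.49, 3.02 and 1.81 CPM with both. No groups overlapped, but the combined group held only 20 counts in all. The level was 2.46-fold lower with R848 than with IFN-α (-1.30 ± 0.28, adjusted p = 0.000345) and 5.78-fold lower with both than with IFN-α (-2.53 ± 0.33, adjusted p = 3.03e-07). Against R848 alone the combined group differed by -1.23 ± 0.38 (adjusted p = 0.0106), which became -1.10 and was not called without its replicate 3 (adjusted p = 0.0700). The call below both agents, with an adjusted p of 0.0312, was also lost with DESeq2 and without any one of R848 replicates 1 and 2 or combined replicate 1. Trim44, which has a B box but no RING, was at 42.0 ± 3.29 CPM with R848, 48.4 ± 3.19 CPM with IFN-α and 33.6 ± 2.95 CPM with both, 1.43-fold lower with both than with IFN-α (adjusted p = 0.00372).

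Against IFN-α alone, adding R848 went with higher levels of 9 members and lower levels of 3, beside 18.5% and 14.7% of all genes tested, or 33.2% in all. The members higher were Trim13, Trim21, Trim25, Trim26, Trim30a, Trim30d, Trim35, Trim47 and Trim56, and those lower were Trim14, Trim44 and Trim65. With at least 2-fold change, 1 member was called higher, Trim13, and 1 lower, Trim65, beside 6.95% and 4.38% of all genes. The median log2 fold change was -0.03 over the members tested and -0.01 over all genes. With library totals alone in place of TMM factors, 4 members were higher and 8 lower. That scaling moved the median of all genes by -0.31 in this comparison and by -0.39 between both agents and R848, where 11 members were then higher and 13 lower. With upper-quartile factors the split against R848 was 13 higher and 7 lower, at a shift of -0.13.

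Outside the range of both single agents, 8 members were called, beside 10.1% of all genes. Above both, 7 were called, beside 7.33% of all genes: Trim21, Trim25, Trim26, Trim30a, Trim30d, Trim35 and Trim56. Their levels exceeded the higher of the single agents by 0.33 in Trim30a to 0.99 in Trim30d on the log2 scale, with adjusted p from 5.38e-08 (Trim30d) to 0.0419 (Trim26). By edgeR, 0 of these members exceeded both agents 2-fold, beside 1.81% of all genes, although 10 of the 34 tested lay above or below both agents at an unadjusted p under 0.05 with no fold limit. With library totals alone, 2 of the 7 were called, Trim25 and Trim30d. Without replicate 3 of the combined group 4 were called, and Trim21, Trim26 and Trim30a were lost. Upper-quartile factors also ended the calls of Trim26 and Trim30a, and so did leaving out IFN-α replicate 2 or 3 or combined replicate 2. Below both single agents 1 member was called, Trim65, beside 2.82% of all genes, and its difference was over 2-fold, as in 0.482% of all genes. The summed astrocyte markers were highest in the same group, and 4 of the 9 tested were called above both single agents, while 3 of 11 microglial markers were called below both. Their part in these TRIM levels was not tested. The absence of an untreated group leaves no test of additivity.

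**Figure D4:**
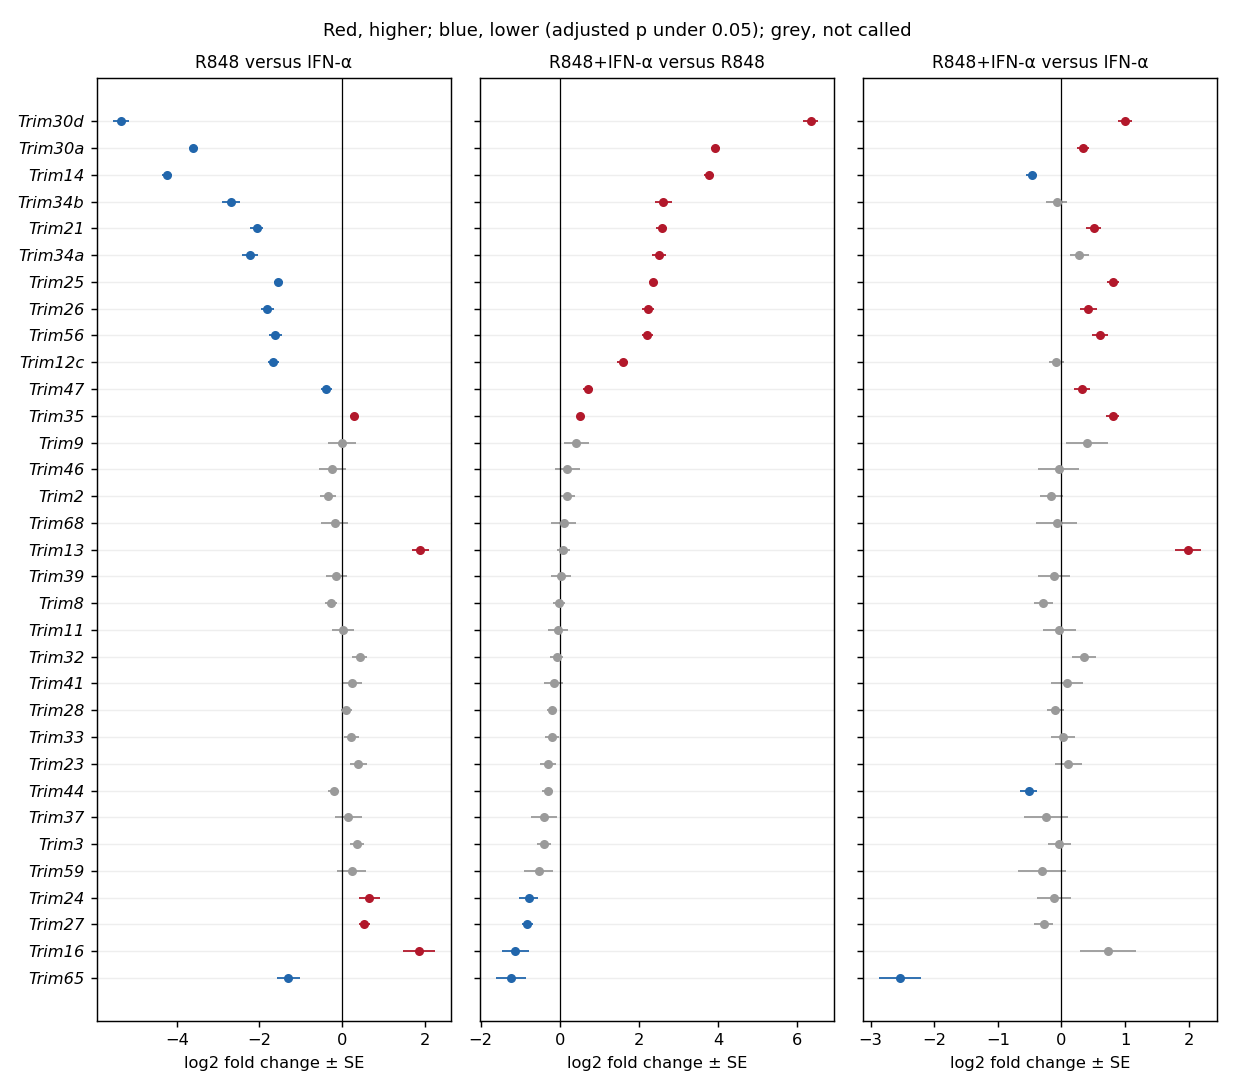
Log2 fold change ± SE of 33 TRIM genes in the comparisons R848 versus IFN-α, R848+IFN-α versus R848 and R848+IFN-α versus IFN-α, each on its own horizontal axis, with red for called higher, blue for called lower and grey for not called. Trim30b is left out because it had no count with R848, and the genes at the top are low in the left panel and high in the middle one.

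By class, 8 of 10 relatives of Trim5 and Trim30 in the files had enough counts. Of those, 7 differed among the 3 groups, beside 50.3% of all genes tested. All 7 had lower levels in the R848 than in the IFN-α group, a call made in 19% of all genes tested. They include the 6 tested members of the chromosome 7 stretch, where the count filter favoured members high with IFN-α. These 7 are thus not independent support for the pattern. Of the other PRY-SPRY members, 11 of 26 were tested and 8 differed among the groups, with 3 higher and 5 lower with R848 than with IFN-α. In the classes without a PRY-SPRY domain, calls among the groups were 1 of 3 tested with a PHD finger and bromodomain and 1 of 2 with a transmembrane segment. They were 1 of 2 with none of these C-terminal domains and 1 of 1 with a B box but no RING. The NHL-repeat, COS-box (microtubule-binding), MATH and ARF classes held none. Among the nuclear co-regulators with a PHD finger and a bromodomain, Trim24 was called, while Trim28, the corepressor of KRAB zinc finger proteins, ran from 49.7 to 75.5 CPM over all libraries and Trim33 from 19.1 to 32.3 CPM. The NHL-repeat members Trim2, Trim3 and Trim32, which are known from neurons and muscle, ranged from 15.9 to 33.7 CPM and were not called. Trim32 came closest, with an adjusted p of 0.0595 between R848 and IFN-α. No difference between classes was tested.

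The remaining members with enough counts were also not called. The microtubule-binding members Trim9 and Trim46 ran from 3.16 to 7.84 CPM. Trim37, with a MATH domain, ran from 3.74 to 11.6 CPM, and Trim23, with an ARF GTPase domain, from 15.5 to 32.6 CPM. Trim8, a regulator of cytokine signalling, ran from 27.8 to 41.3 CPM, and the transmembrane member Trim59 from 2.59 to 8.59 CPM. The PRY-SPRY members Trim11, Trim39 and Trim41 lay between 6.33 and 15.3 CPM. Among these members, at about 10 CPM or less, the SE of the log2 fold change was 0.25 to 0.38, and differences of that size were not detectable at this depth, nor was the difference of -0.54 ± 0.36 between both agents and R848 in Trim59.

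Of the 32 members without enough counts, 12 had no count in any library: Trim12a, Trim38, Trim40, Trim42, Trim43b, Trim43c, Trim55, Trim58, Trim60, Trim61, Trim71 and Trim75. Over all 9 libraries a count of 0 allows up to 3 counts, or 0.1055 CPM. A further 14 had 1 to 9 counts in total: Trim7, Trim10, Trim15, Trim17, Trim29, Trim31, Trim43a, Trim50, Trim52, Trim54, Trim63, Trim69, Trim72 and Trim80. Trim54, Trim55 and Trim63 are the muscle RING-finger members, with 6 counts between them. The summed muscle markers reached at most 1.41 CPM in any library. The others were Trim66 with 16 counts, Trim36 with 27, Trim6 with 28, Trim67 with 65, Trim45 with 82 and Trim62 with 93. Trim6, the only untested member of the chromosome 7 stretch with counts, had 7 with R848, 6 with IFN-α and 15 with both.

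TRIM proteins that go by other names followed the main pattern in part. Pml, the scaffold of nuclear bodies, was at 6.63 ± 0.982 CPM with R848, 108 ± 6.00 CPM with IFN-α and 166 ± 15.3 CPM with both. Mid1, a microtubule-binding ligase, was at 9.12 ± 2.92, 48.2 ± 3.50 and 92.0 ± 8.14 CPM in the same order. Both had lower levels with R848 than with IFN-α and levels above both single agents with the combination, while Mid2 was not called. Mefv, which encodes pyrin, had too few counts to be tested, and Triml1 and Triml2 were at 0.

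Of 18 substrates and partners of TRIM ligases in innate signalling, 4 were higher and 6 lower with R848 than with IFN-α, beside 18.4% and 19% of all genes, with a median log2 fold change of 0.12. With both agents, 8 were higher and 2 lower than with R848, beside 19.2% and 16.7% of all genes, and 8 were higher and 2 lower than with IFN-α, beside 18.5% and 14.7%. Ifih1 was at 14.7 ± 1.59, 312 ± 15.9 and 679.6 ± 38.4 CPM with R848, IFN-α and both, and Ddx58, the substrate of Trim25, at 3.02 ± 0.722, 58.2 ± 16.4 and 71.2 ± 12.9 CPM. Irf7 rose from 24.1 ± 1.46 CPM with R848 to 901 ± 14.0 CPM with IFN-α. Nlrp3, the inflammasome sensor, reached 367 ± 52.4 CPM in the R848 group against 8.85 ± 0.858 in the IFN-α group, and Ikbke, a kinase of Irf3 and Irf7, at 244 ± 9.91 and 45.9 ± 6.00 CPM. Tab2, the partner on which Trim30a acts, was called above both single agents with the combination, and Tab3 was called in no comparison.

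The 12 E2 enzymes on the list used carry ubiquitin or ISG15 for transfer to other proteins. With R848, 2 were higher and 3 lower than with IFN-α, beside 18.4% and 19% of all genes. Against each single agent, 5 were higher with both, beside 19.2% of all genes for R848 and 18.5% for IFN-α. Ube2l6, the E2 of ISG15, was at 32.5 ± 3.50 CPM with R848, 134 ± 1.72 CPM with IFN-α and 133 ± 10.3 CPM with both. Ube2e1 was at 51.7 ± 2.45, 105 ± 3.82 and 142 ± 12.9 CPM. Among genes of type I interferon signalling, Stat2 and Irf9 had less RNA with R848 than with IFN-α, and Ifnar1, a chain of the interferon receptor, had more. Stat2 stood at 22.3 ± 1.55 CPM in the R848 group and at 293 ± 31.9 in the IFN-α group.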

How the data were processed

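The authors deposited STAR read counts per gene for 9 libraries, which the values show to be whole and not normalized, with unstranded, forward-strand and reverse-strand columns. The submitters' processing notes name CASAVA 1.8.2, Trimmomatic 0.33, STAR 2.5.1, DESeq2 and mm10; an annotation is not given there or in the labels. Libraries were directional, per the labels, and reverse-strand counts were used. STAR leaves out reads that map to several places, so near-identical genes may be undercounted.

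Low genes were removed by filterByExpr of edgeR (minimum count 10, total 15). The rest were scaled with TMM and fitted as group means over all libraries (edgeR 4.0.16, limma 3.58.1, R 4.3.3). A gene was called above or below both single agents from the larger of its p-values against each. An SE is the log2 fold change over the root of its F statistic. Scripts were tested on simulated data. Rows naming no gene were left out, and reads in no gene made up 39.3% to 44.4% of read pairs.

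Members and lists were chosen with earlier results of these data known. Every library's value is given for members called with an absolute log2 fold change of at least 1 and at least 5 CPM, and the others by means, ranges or counts. Replicates differed by more than sampling noise (chi-square per degree of freedom 1.92 to 6.27 without the ribosomal gene Rn45s). Alternatives were DESeq2 1.42.0, other scalings and filters, unstranded counts, a replicate block and leaving out each library. Intervals and the floor of 3 counts cover counting error only. A result for 1 gene of the interferon signalling list is not reported here.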

Additional observations from a re-analysis of the deposited data

Results flagged for a closer look

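Forward-strand counts, which the comparisons do not use, were examined only in members that were not low in them. In 5 of these members the 95% Wilson interval lay wholly above the share over all genes, 1.295% of counts on both strands. Trim12c had 213 forward-strand counts over the 9 libraries, 9.253% of its counts on both strands (95% Wilson interval 8.136% to 10.51%, counting error only). They were 22 with R848, 91 with IFN-α and 100 with both, or 6.587%, 9.743% and 9.671% of its counts. Trim41 had 50, or 13.3%, and Trim39 had 21, or 7.047%. Trim13 had 25, or 3.378%. Trim15 had 22 on the forward strand and 2 on the strand used here.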

How the results depend on the processing

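Over 19 alternative settings, 2059 single-member values were recomputed: 1970 kept their side of the threshold, 63 lost a call, 26 gained one and none reversed. With DESeq2, 3 members were higher with R848 than with IFN-α instead of 5, and 0 were below both single agents instead of 1. With library totals alone, 6157 genes instead of 3947 were called between both agents and R848, with 13 members lower instead of 4; against IFN-α 4 members were higher and 8 lower instead of 9 and 3; 2084 genes instead of 1116 lay above or below both agents, with 2 members above and 3 below. With upper-quartile factors 7 members were lower with both than with R848, and 2 lay below both agents. With no low-count filter 54 members entered instead of 34. The cause of these moves was not tested.

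Leaving out 1 library at a time gave 4 to 5 members higher and 12 to 14 lower with R848 than with IFN-α. It gave 13 higher and 1 to 5 lower with both than with R848, 6 to 9 higher and 3 lower with both than with IFN-α, 4 to 8 above and 0 to 1 below both agents, and 35 to 37 with enough counts. The lowest values for members lower than R848 (1) and above both agents (4) came without replicate 3 of the combined group, the deepest library. Deviations from the group means correlated at -0.101 to 0.0587 between same-numbered libraries and at -0.0856 to 0.0601 between differently numbered ones. With 3 libraries per group, a weak shared effect could go unseen, so this cannot exclude a shared culture or batch. A fit with a replicate block called 4147, 3995 and 3701 genes in the comparisons of R848 with IFN-α, both with R848 and both with IFN-α, and kept every member call of those comparisons. Depth limits members under about 10 CPM.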
